A study of Mus musculus with 6 samples.

Results

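Expression of 10 genes that mark the endothelium, the lining of blood vessels, was followed in RNA-seq counts of mouse kidney tubular cells: Pecam1, Cdh5, Kdr, Flt1, Tek, Emcn, Ehd3, Egfl7, Plvap and Eng. The rows were taken from the count table by symbol, and all 10 of the 46095 listed genes were present and passed the filter on low counts, which kept 14611 genes. These 10 genes were selected from earlier results of the same libraries, so their difference between the genotype labels is given as a description, without a test. The libraries came from primary tubular epithelial cells (PTECs) freshly isolated from 10-week-old mice on a C57 background, 3 per genotype. In all 6 mice, Cre recombinase driven by the kidney-specific cadherin promoter (Cdh16-cre, written Ksp-Cre), which is active in tubular epithelium, deleted the floxed VHL gene. The first 3 libraries were labelled VHL-KO (replicates 1, 2 and 4), and the other 3 were labelled VHL-KO;SETD2-KO (replicates 2, 3 and 4) and came from mice in which floxed Setd2 was deleted by the same Cre. VHL encodes the ubiquitin ligase subunit that marks hypoxia-inducible factors for destruction, and Setd2 encodes the enzyme that trimethylates lysine 36 of histone H3. Endothelium is not a known site of activity of this promoter, and the counts of a whole library do not show which cells the RNA came from. Fewer cells of a type and less RNA per cell cannot be told apart in such libraries.

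Endothelial cells are joined by VE-cadherin and PECAM-1, and they grow and survive on vascular endothelial growth factor (VEGF) signalling through its receptor tyrosine kinases and on angiopoietin signalling through the receptor Tie2. In the kidney they form several beds. The glomerular capillaries are fenestrated without diaphragms and depend on VEGF made by the podocytes around them, whereas the peritubular capillaries carry diaphragms built from the protein of Plvap. Mature endothelial identity is maintained by transcription factors of the ETS, SOX, GATA and KLF families, and ETS factors recognise a core of GGAA.

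Sequence upstream of the start sites is shown for 4 members as examples with and without the ETS-type letters: the VEGF receptor genes Kdr and Flt1, whose levels moved closely together, and Emcn and Eng, whose promoters differed in base composition. In RefSeq's promoter table for GRCm38.p6, 7 of the 10 members were matched, with 9 promoters in all since Egfl7 has 3 starts. The 250 bases before each start were searched on both strands. Capitals mark AGGAAG or its complement CTTCCT, and the sequences read 5′ to 3′ on the strand of the gene.
Kdr, chr5:75978456-75978705, minus strand: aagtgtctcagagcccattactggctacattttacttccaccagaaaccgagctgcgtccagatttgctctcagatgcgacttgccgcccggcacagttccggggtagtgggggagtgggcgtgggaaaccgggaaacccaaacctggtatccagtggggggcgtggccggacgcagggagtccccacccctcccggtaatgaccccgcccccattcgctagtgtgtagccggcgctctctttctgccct
Flt1, chr5:147726012-147726261, minus strand: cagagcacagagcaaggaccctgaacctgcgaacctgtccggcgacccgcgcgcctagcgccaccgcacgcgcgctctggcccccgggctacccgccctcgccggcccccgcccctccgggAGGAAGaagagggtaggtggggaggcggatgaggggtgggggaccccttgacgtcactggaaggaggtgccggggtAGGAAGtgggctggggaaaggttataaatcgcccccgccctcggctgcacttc
Emcn, chr3:137340828-137341077, plus strand: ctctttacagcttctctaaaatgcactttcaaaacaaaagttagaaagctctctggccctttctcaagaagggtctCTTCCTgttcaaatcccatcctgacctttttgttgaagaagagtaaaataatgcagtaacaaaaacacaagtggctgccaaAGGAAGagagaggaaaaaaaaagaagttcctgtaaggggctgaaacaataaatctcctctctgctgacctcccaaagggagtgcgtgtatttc
Eng, chr2:32646345-32646594, plus strand: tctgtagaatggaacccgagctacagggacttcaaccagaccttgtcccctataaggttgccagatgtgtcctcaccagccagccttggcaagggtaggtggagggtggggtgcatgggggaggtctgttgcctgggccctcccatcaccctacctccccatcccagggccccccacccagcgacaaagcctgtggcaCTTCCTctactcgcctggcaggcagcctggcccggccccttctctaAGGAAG
The letters AGGAAG occurred in 5 of the 9 promoters (55.6%), with 3 matches at the first and 1 at the second start of Egfl7 and 2 each in Flt1, Emcn and Eng, against 29.5% of the 32851 promoters in the table. The shorter core GGAA, which AGGAAG contains, was in 9 of 9 against 93.4% of all. No member promoter held ACCGGAAGT (0.804% of all promoters), CCGGAAG (6.91%), the hypoxia-response letters ACGTG (16.6%) or the GATA letters AGATAA (9.99%). GCGTG, the other form of the hypoxia-response core, was in 3 of 9 (33.3%) against 28.2%, in Kdr, Flt1 and Emcn. TATAAA was in Flt1 alone, 1 of 9 (11.1%), against 12.4% of all promoters. The promoter GC content was 61.6% for Kdr, 70.4% for Flt1, 40.8% for Emcn and 62.4% for Eng. These matches describe letters in the window and do not show binding.

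Before the levels are read, 2 libraries need to be set apart. Values below follow the order of replicates 1, 2 and 4 for VHL-KO and then 2, 3 and 4 for VHL-KO;SETD2-KO. Setd2 reached 1179, 799 and 132 counts under the first label and 1499, 1019 and 1429 under the second. Its log2 fold change was 0.52 ± 0.64 (SE, edgeR adjusted p = 0.787). The counts over the whole gene were thus not lower under the label that names a Setd2 deletion. The lowest count, 132, was in VHL-KO replicate 4, and over the alternative fits described below the log2 fold change ranged from 0.05 to 1.48. Vhl had 139 to 276 and 189 to 317 counts. A deletion of some exons can leave counts elsewhere in a gene, and these gene totals cannot show which exons were read. Such a deletion and a library under the wrong label cannot be told apart here, so each difference below is between libraries as labelled. Library VHL-KO replicate 4 stood apart over its whole profile. Its Spearman correlation across genes was 0.717 to 0.765 with the other libraries, those of its own label included, against 0.937 to 0.986 among those others. Its mitochondrial share was 11.3% of counts against 25.9% to 36.4% in the others. Library VHL-KO;SETD2-KO replicate 3 held 11704 counts of Xist, against 0 to 4 elsewhere, and 1 count over 4 Y-linked genes, against 260 to 3283 elsewhere. Totals were 11168552 to 17883466 counts per library, so that 3 counts, the smallest signal taken as detectable, were 0.159 to 0.280 CPM (counts scaled to a common library size, adjusted by the trimmed mean of M-values, TMM). This floor covers counting error only.

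All 10 endothelial genes were above the floor in every library. Together they took 0.206% to 0.286% of the counts in libraries labelled VHL-KO and 0.282% to 0.758% in the VHL-KO;SETD2-KO-labelled ones. Levels between genes were compared per transcript length (TPM, from the longest coding transcript in GENCODE). Averaged over the 6 libraries, Ehd3 had the highest level (811 ± 541 TPM, SD), followed by Emcn (757 ± 592), Kdr (534 ± 415), Eng (499 ± 284) and Egfl7 (413 ± 209). Pecam1 (357 ± 251), Cdh5 (211 ± 157), Tek (146 ± 106), Flt1 (104 ± 72.1) and Plvap (78.0 ± 69.2) followed, again in TPM. Neighbours in this order differed by less than the larger of their SDs in 9 of 9 pairs. Within libraries some steps held throughout, with Emcn above Kdr and Tek above Flt1 in 6 of 6, whereas Ehd3 was above Emcn in 4 of 6.

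**Figure D1:**
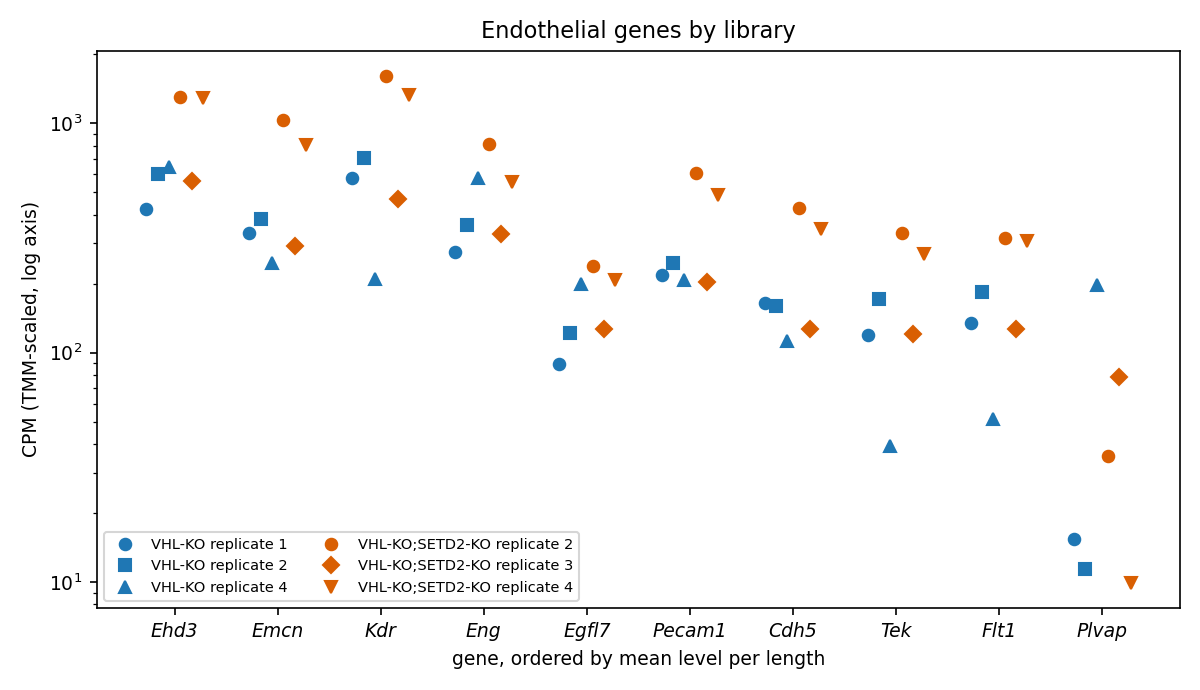
CPM of the 10 endothelial genes (log axis) in each of the 6 libraries, with genes in order of mean TPM, libraries labelled VHL-KO in blue and VHL-KO;SETD2-KO in orange. VHL-KO;SETD2-KO replicates 2 and 4 are the upper points for most genes and replicate 3 lies among the blue points, while Plvap is highest in VHL-KO replicate 4.

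Junction proteins were described first. Pecam1, the adhesion molecule CD31 (chr11:106654217-106750628, minus strand, GRCm38), had 217, 246 and 208 CPM under VHL-KO and 607, 204 and 488 CPM under VHL-KO;SETD2-KO. Replicates 2 and 4 of the latter were above all 3 of the former, and replicate 3 was below them. Its fitted log2 fold change between the labels was 0.95 ± 0.50 (SE, n = 3 per label, as for all fold changes below). Cdh5 encodes VE-cadherin, the adhesion molecule of endothelial junctions (chr8:104101625-104144511, plus strand), and had 164, 159 and 112 CPM under the first label against 426, 127 and 345 CPM under the second. The pattern was the same, with replicate 3 inside the range of the VHL-KO-labelled libraries, and the log2 fold change was 1.04 ± 0.53.

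The receptor tyrosine kinases spread widely among libraries of 1 label. Kdr encodes VEGF receptor 2, the main signalling receptor for VEGF-A (chr5:75932827-75978458, minus strand). Its levels were 579, 707 and 209 CPM in the VHL-KO-labelled libraries and 1608, 466 and 1326 CPM in the VHL-KO;SETD2-KO-labelled ones. Flt1, VEGF receptor 1, which binds VEGF tightly and signals weakly (chr5:147561604-147726011, minus strand), had 134, 184 and 51.4 CPM against 317, 127 and 307 CPM. Tek, the angiopoietin receptor Tie2 (chr4:94739289-94874976, plus strand), had 119, 172 and 39.3 CPM against 332, 121 and 269 CPM. In all 3 genes, VHL-KO replicate 4 was the lowest library and VHL-KO;SETD2-KO replicates 2 and 4 were the highest. The log2 fold changes were 1.19 ± 0.65 for Kdr, 1.02 ± 0.59 for Flt1 and 1.13 ± 0.63 for Tek. As a share of Kdr, Flt1 held between 19.7% and 27.2% in CPM, including in VHL-KO replicate 4. The level of Kdr relative to Pecam1 was 1.00 in VHL-KO replicate 4 and 2.28 to 2.87 in the other 5 libraries.

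Emcn encodes endomucin, a sialomucin of the capillary and venous surface (chr3:137341067-137432185, plus strand), and had 333, 382 and 245 CPM against 1031, 291 and 805 CPM, a log2 fold change of 1.15 ± 0.55. Ehd3, an endocytic trafficking ATPase known in the kidney as a glomerular endothelial gene (chr17:73804134-73832094, plus strand), had 425, 603 and 644 CPM against 1307, 561 and 1292 CPM, a log2 fold change of 0.92 ± 0.50. For Ehd3, VHL-KO replicate 4 was the highest of its label. This order also held for the 3 remaining genes. Egfl7, a protein secreted by endothelial cells into the vessel matrix (chr2:26580014-26593120, plus strand), had 89.1, 122 and 200 CPM against 238, 126 and 208 CPM, and its log2 fold change was 0.48 ± 0.47. Eng, the TGF-β family co-receptor endoglin (chr2:32646595-32682669, plus strand), had 275, 361 and 579 CPM against 813, 331 and 556 CPM, with a log2 fold change of 0.48 ± 0.51. These 2 genes had the smallest differences among the 9 members with values above 0, and for Eng VHL-KO replicate 4 was above VHL-KO;SETD2-KO replicate 4.

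Plvap encodes the diaphragm protein of fenestrae and caveolae (chr8:71497765-71511752, minus strand), and it stood apart from the other 9 genes. It had 255, 124 and 2114 counts under VHL-KO and 666, 1393 and 159 under VHL-KO;SETD2-KO. In CPM these were 15.4, 11.5 and 197 against 35.3, 78.3 and 9.96. The 2 libraries with the highest Plvap were thus VHL-KO replicate 4 and VHL-KO;SETD2-KO replicate 3, 1 under each label. The log2 fold change was -0.86 ± 1.14, and without VHL-KO replicate 4 it was 1.61. As a share of Ehd3, in CPM, Plvap was 30.6% and 14.0% in these 2 libraries and between 0.771% and 3.63% in the other 4. Igfbp7, a vasa recta gene, was also highest in these 2 libraries, at 1343 and 911 CPM against 321 to 448 CPM elsewhere, but Fxyd6 of the same list was at 4.10 CPM in VHL-KO;SETD2-KO replicate 3, below replicates 2 (9.49) and 4 (7.89) of that label. Collecting duct genes summed to 597 and 318 CPM in the 2 libraries against 54.6 to 95.7 CPM elsewhere. The part of these cells in the Plvap values was not tested.

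Between the labels, 9 of the 10 genes had fitted values above 0 and the median log2 fold change was 0.99, where the median of all 14611 tested genes was 0.01. None of the 10 passed edgeR's call of an unadjusted p under 0.05 with a fold change of at least 1.5 (background: 2.66% of tested genes called higher and 4.68% lower), and 1, Emcn, passed it with DESeq2, which called 449 genes higher in all. After Benjamini-Hochberg adjustment edgeR called 1 gene in the whole table (0.00684%), which was not a member. The 2 sets of 3 libraries overlapped for all 10 genes, against 9.62% of tested genes that did not overlap and were higher under VHL-KO;SETD2-KO than under VHL-KO, and 11% that did not overlap and were lower. Without VHL-KO;SETD2-KO replicate 3, 5 members passed edgeR's unadjusted call (Cdh5, Ehd3, Emcn, Kdr and Pecam1), and Egfl7 passed it without VHL-KO replicate 4. The range of all genes called over such fits is given in the last section. Nothing about the members is read from these counts, since the same contrast chose them.

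**Figure D2:**
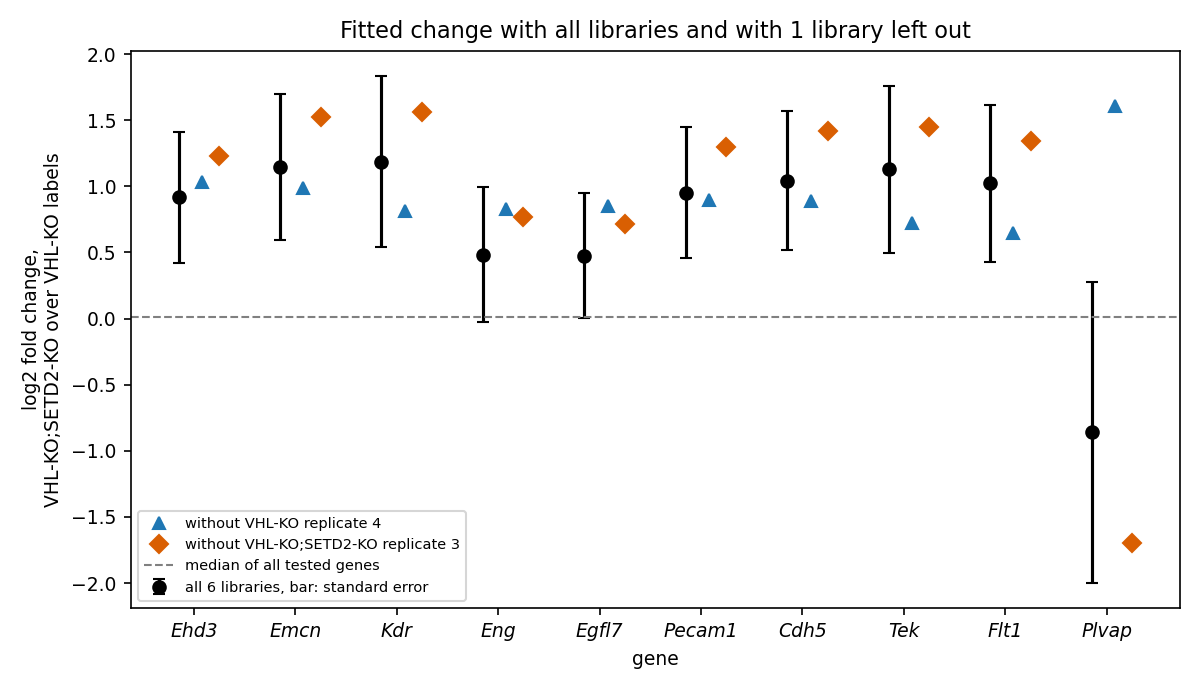
Fitted log2 fold change of each endothelial gene, libraries labelled VHL-KO;SETD2-KO over VHL-KO (black, bars are standard errors, 3 libraries per label), and the same fit without VHL-KO replicate 4 (blue triangles) or without VHL-KO;SETD2-KO replicate 3 (orange diamonds). The dashed line is the median of all tested genes. All genes but Plvap lie above the line in all 3 fits, and Plvap moves from -0.86 to 1.61 without VHL-KO replicate 4 and to -1.70 without VHL-KO;SETD2-KO replicate 3.

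Which libraries carried the difference was then counted. Replicate 2 labelled VHL-KO;SETD2-KO was above the range of all 3 libraries labelled VHL-KO for 9 of 10 genes, replicate 4 for 8, and replicate 3 for 0. Replicate 3 lay within that range for 9 genes and below it for 1, Pecam1. Against the mean of replicates 2 and 4 of its own label, replicate 3 was lower by log2 differences of -0.81 to -1.65 in 9 genes and higher by 2.05 in Plvap. When it was left out, the median log2 fold change was 1.32. Without VHL-KO replicate 4 the median was 0.87 and all 10 values were above 0. Without VHL-KO;SETD2-KO replicate 2, the library with the highest values, the median was 0.73. The mean of the members' log2 CPM, centred over the 6 libraries, was -0.51, -0.26 and -0.41 in the VHL-KO-labelled libraries and 0.93, -0.27 and 0.52 in the VHL-KO;SETD2-KO-labelled ones, so that replicate 3 sat with the first label.

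The 10 genes did not vary as 1 block. Over the 6 libraries, Pearson correlations of log2 CPM were highest for Flt1 with Tek (0.996), Cdh5 with Emcn (0.995), Kdr with Flt1 (0.992) and Pecam1 with Emcn (0.987). Egfl7 and Eng formed another close pair (0.972). Plvap ran against the receptors, with -0.74 for Flt1, -0.71 for Tek and -0.70 for Kdr. All of these values rest on the same 6 libraries, VHL-KO replicate 4 included, and are given without a test.

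VHL-KO replicate 4 separated the members by sequence composition. Relative to the mean of VHL-KO replicates 1 and 2, on the log2 CPM scale, it was lower for Tek (-1.86), Kdr (-1.61), Flt1 (-1.61), Emcn (-0.54), Cdh5 (-0.52) and Pecam1 (-0.15) and higher for Ehd3 (0.35), Eng (0.88), Egfl7 (0.94) and Plvap (3.88). The 6 lower genes had transcripts of 41.5% to 52.2% GC and 2588 to 6895 bases, and the 4 higher ones of 52.2% to 60.6% GC and 1391 to 3659 bases. Across the 10 genes the difference had a Pearson correlation of 0.76 with GC content and -0.74 with the logarithm of length, as a description across genes, which are not independent. With GC content it was 0.71 over the 10 genes and 23 other endothelial genes and 0.74 over the 13811 tested genes with a known transcript. With length it was weaker in these wider sets, at -0.47 and -0.36. Its part in the fitted values of single members was not tested.

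**Figure D3:**
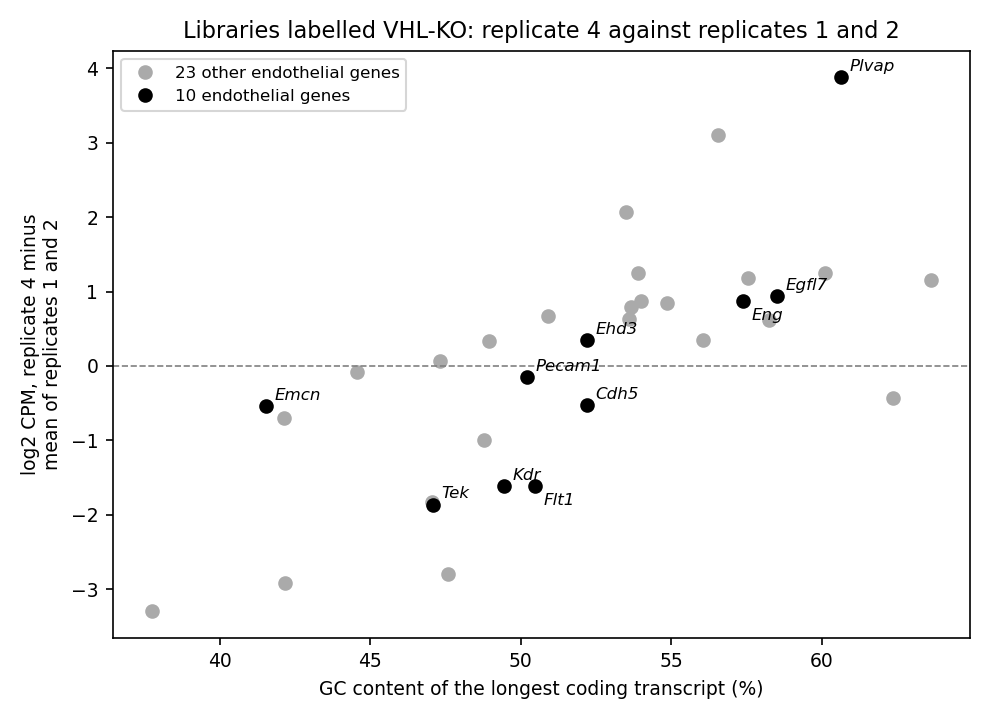
For the 10 endothelial genes (black, named) and 23 other endothelial genes (grey), the log2 CPM in VHL-KO replicate 4 minus the mean of VHL-KO replicates 1 and 2 (vertical axis) against the GC content of the longest coding transcript in percent (horizontal axis). The differences run from low values at low GC, with Tek at -1.86, to high values at high GC, with Plvap at 3.88.

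Beside the 10 genes, 24 further endothelial genes were read from a list, of which 23 passed the filter. This list and those below were chosen with earlier results of these data known, so they are no independent check of the members. The tight junction gene Cldn5 did not pass, with at most 1.12 CPM in any library. Of the 23, 22 had values above 0 and the median log2 fold change was 0.65. Of these, 4 passed edgeR's unadjusted call as higher (against 2.66% of all tested genes) and 0 as lower (against 4.68%), and 0 passed after adjustment (adjusted p = 0.625 for each of the 4). These were S1pr1, the sphingosine-1-phosphate receptor (26.7, 32.4 and 14.7 against 74.0, 55.4 and 71.2 CPM, log2 fold change 1.44 ± 0.43), and Cd93, a lectin-like adhesion receptor (7.68, 20.9 and 13.4 against 27.1, 32.7 and 31.2 CPM, 1.12 ± 0.45). The others were Clec14a, a vascular C-type lectin (78.5, 16.6 and 34.1 against 187, 68.2 and 126 CPM, 1.56 ± 0.65) and Myct1 (25.1, 23.0 and 14.8 against 77.8, 22.0 and 46.8 CPM, 1.22 ± 0.53). In S1pr1 and Cd93 all 3 libraries of 1 label lay above all 3 of the other, as they did in Adgrf5. Such genes were 3 of the 23, against 9.62% of all tested genes, and 0 lay the other way, against 11%. Without VHL-KO replicate 4 the calls were 9 rather than 4, 2 without VHL-KO replicate 1, and 1 without either of VHL-KO;SETD2-KO replicates 2 and 4. S1pr1 passed in each of these fits, whereas the other 3 genes each lost the call in several. With the replicate block, however, S1pr1 lost the call and Clec14a kept it. The share of 2.66% belongs to the fit with all libraries. The number of all tested genes called also changed when 1 library was left out, over the range given in the last section. This limit holds too for the lists that follow.

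The 3 most abundant of these genes were high in the same libraries as most members. Adgrf5, an adhesion G-protein-coupled receptor, had 287, 384 and 93.0 CPM against 827, 389 and 753 CPM (1.37 ± 0.61 on the log2 scale). Ptprb, the vascular phosphatase that restrains Tie2, had 354, 425 and 55.8 CPM against 783, 295 and 727 CPM (1.11 ± 0.75). Tie1, the partner of Tie2, had 93.8, 115 and 235 CPM against 260, 98.4 and 237 CPM (0.42 ± 0.55). Ptprb and Tie1 show again the opposite behaviour of VHL-KO replicate 4 among endothelial genes, lowest for Ptprb and among the 3 highest for Tie1. Replicate 3 labelled VHL-KO;SETD2-KO was below the mean of its label's other libraries in 21 of the 23 genes.

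**Figure D4:**
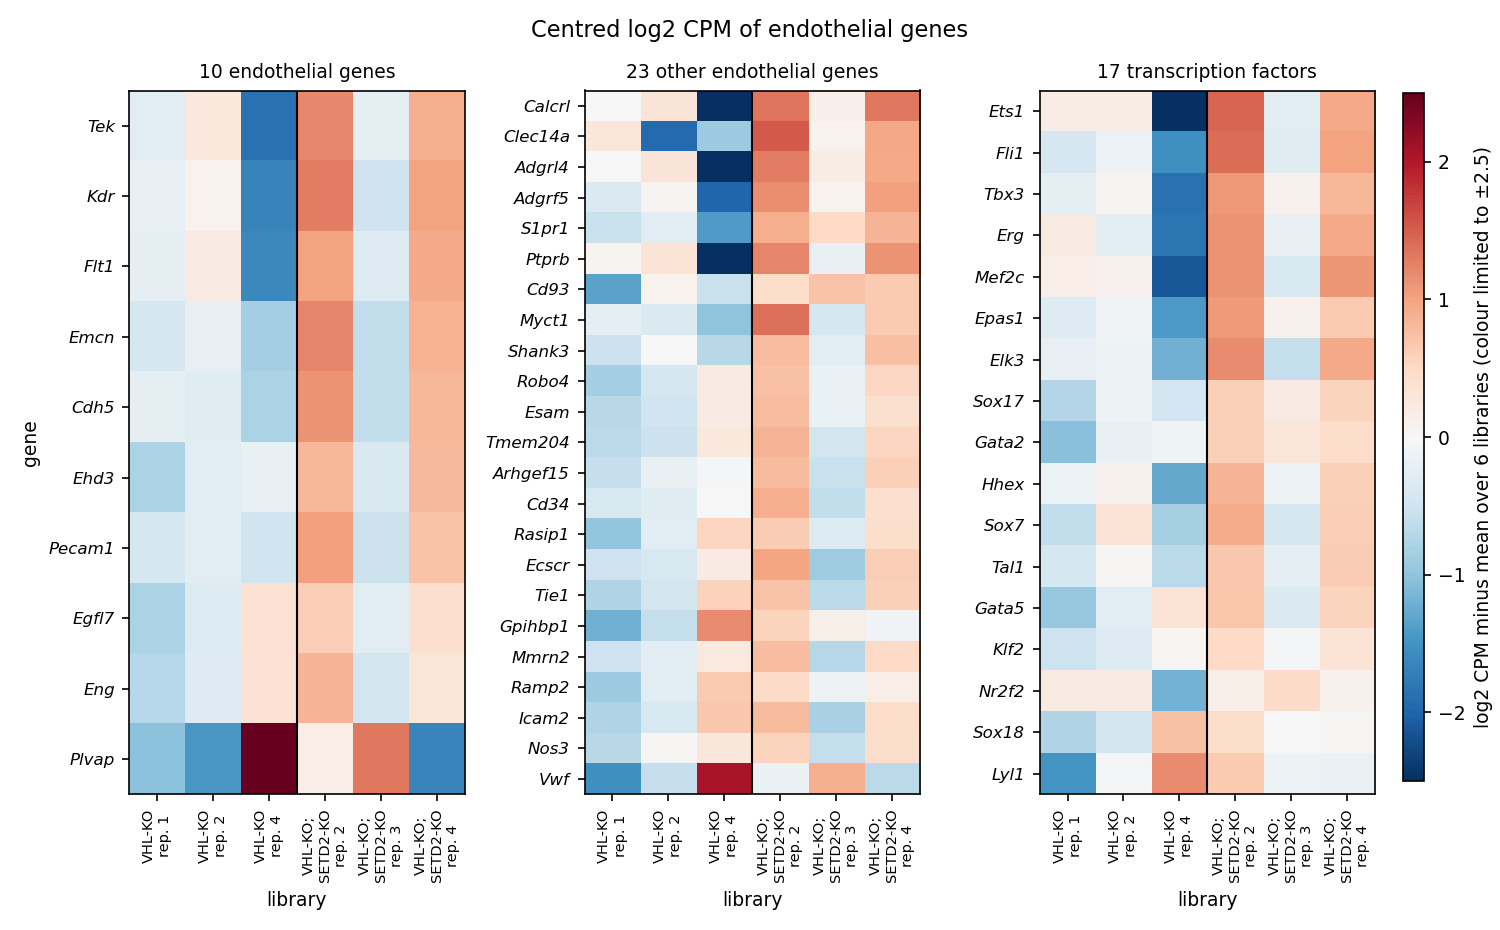
Log2 CPM minus the gene's mean over the 6 libraries (colour, red above and blue below the mean, limited to 2.5 either way) for the 10 endothelial genes, 23 other endothelial genes and 17 transcription factors, each sorted by the difference between labels. The columns of VHL-KO;SETD2-KO replicates 2 and 4 are red for most genes, replicate 3 is pale, and VHL-KO replicate 4 ranges from the deepest blue to the deepest red within each panel.

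Endothelial transcription factors had a median log2 fold change of 0.84 over 17 tested genes, with 16 above 0. The unadjusted call was passed by 2, both higher (adjusted p = 0.625 for each, edgeR). Fli1, an ETS factor, had 9.08, 11.1 and 4.11 against 32.5, 9.84 and 24.8 CPM (1.47 ± 0.57), and Sox17, an arterial and endothelial SOX factor, had 23.4, 35.6 and 27.9 against 58.7, 45.0 and 57.3 CPM (0.89 ± 0.38). The most abundant factor was Epas1, which encodes HIF-2α and is a substrate of VHL at the protein level. Its levels were 272, 320 and 125 CPM against 705, 365 and 533 CPM, with no overlap between labels (1.16 ± 0.51). Ets1 (1.18 ± 0.74) and Klf2, the flow-responsive factor (0.52 ± 0.39), overlapped between labels. Without VHL-KO replicate 4, 7 of the 17 factors passed the unadjusted call, Fli1 not among them, and with either of VHL-KO;SETD2-KO replicates 2 and 4 left out 0 did. Sox17 lost the call with RLE size factors, with DESeq2, without the filter on low counts and when any library other than VHL-KO replicate 4 was left out.

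Angiogenic ligands, some of which bind receptors among the members and some Notch or other receptors, varied less evenly. Of 13 listed angiogenic ligands 11 were tested, 8 had values above 0 (median 0.64), and 1, the Notch ligand Jag1, passed the unadjusted call (7.44, 15.1 and 4.95 against 20.1, 31.5 and 20.8 CPM, 1.40 ± 0.51, edgeR adjusted p = 0.625). Vegfa, the ligand of Kdr and Flt1 and a target of hypoxia-inducible factors, had 282, 342 and 114 CPM against 402, 404 and 423 CPM. All 3 libraries labelled VHL-KO;SETD2-KO were higher, including replicate 3, and the log2 fold change was 0.73 ± 0.50 (edgeR adjusted p = 0.65). Without VHL-KO replicate 4, 3 ligands passed, and without VHL-KO replicate 1 or VHL-KO;SETD2-KO replicate 3 none (0) did. Dll4, the Notch ligand of tip cells, had a log2 fold change of 0.73 ± 0.43 and Jag2 of 0.36 ± 0.45.

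Other angiogenic receptors and targets had 2 of 13 tested genes past the unadjusted call, both higher, and a median log2 fold change of 0.71. These were Esm1, a secreted tip cell proteoglycan (9.08, 3.51 and 2.43 against 19.2, 27.2 and 6.07 CPM, 1.79 ± 0.70), and Hey1, a Notch target (5.26, 6.56 and 4.95 against 14.1, 12.8 and 8.08 CPM, 1.06 ± 0.41), each with an edgeR adjusted p of 0.625. These 2 calls became 5 without VHL-KO replicate 4, Esm1 not among them, and 0 without VHL-KO replicate 2 or without VHL-KO;SETD2-KO replicate 2 or 3. In Esm1, replicate 3 was the highest library, unlike in the members. Nrp1, the VEGF co-receptor neuropilin-1, had 543, 590 and 131 CPM against 1383, 492 and 1201 CPM (1.28 ± 0.68), which is the order of Kdr and Flt1. Bmpr2, a receptor of bone morphogenetic proteins, had a log2 fold change of 1.04 ± 0.74 and Notch1 of 0.94 ± 0.45.

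Genes of single vascular beds differed from one another when all libraries were kept. In the glomerular endothelial list, 1 of 4 genes passed the unadjusted call, Plat, the tissue plasminogen activator, with 476, 875 and 625 CPM against 1592, 1252 and 1501 CPM (1.14 ± 0.45, edgeR adjusted p = 0.625). The call of Plat was lost without VHL-KO replicate 1 or without either of VHL-KO;SETD2-KO replicates 2 and 4. Lpl, lipoprotein lipase, had 750, 854 and 221 CPM against 790, 442 and 852 CPM, and Pi16 had 104, 121 and 157 CPM against 274, 98.5 and 255 CPM. Arterial genes (0 of 6 called), venous and peritubular genes (0 of 3) and vasa recta genes (0 of 3 tested) gave no call at the unadjusted threshold with all libraries. Without VHL-KO replicate 4, 1 of 6, 2 of 3 and 1 of 3 were called higher, with median log2 fold changes of 0.93, 0.94 and 0.99. Among the genes of these beds Efnb2, the arterial ephrin ligand, was, like Kdr, lowest in VHL-KO replicate 4 and highest in VHL-KO;SETD2-KO replicates 2 and 4. It had 113, 109 and 17.4 CPM against 291, 121 and 206 CPM. By contrast Igfbp7, which made up most of the vasa recta sum, had 375, 321 and 1343 CPM against 448, 911 and 328 CPM, highest in the same 2 libraries as Plvap. Lymphatic genes were low, with a summed level of 3.08 to 4.96 against 5.76 to 8.49 CPM and Ccl21a at 0 in all 6 libraries. Prox1, the lymphatic transcription factor, held most of the sum in 5 of the 6 libraries, at 3.03, 2.86 and 0.84 against 4.51, 6.58 and 4.57 CPM, and did not overlap between labels. The summed level of the 24 endothelial genes was 1455 to 1892 CPM in libraries labelled VHL-KO and 1750 to 4053 CPM in the VHL-KO;SETD2-KO-labelled ones.

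Of the other cell types, podocytes were the one whose markers moved with the endothelial genes when all libraries were kept. The 10 podocyte genes, which mark the epithelium around the glomerular capillaries, summed to 1845, 2439 and 2490 CPM in libraries labelled VHL-KO and to 5838, 2474 and 5224 CPM in the VHL-KO;SETD2-KO-labelled ones. The 10 members summed to 2351, 2948 and 2486 CPM against 6714, 2432 and 5606 CPM, so that the same 2 libraries were high in both lists. Divided by the podocyte sum, the members' sum was 1.27, 1.21 and 0.998 against 1.15, 0.983 and 1.07, a ratio chosen after the values had been seen. On this scale the libraries overlapped and differed by less than in CPM. Podxl, the podocyte sialomucin that endothelial cells also make, had 911, 1322 and 1125 CPM against 2961, 1121 and 2679 CPM. It was the largest term of the podocyte sum in every library, so the divisor of the ratio can itself include endothelial RNA. Of the 10 podocyte genes 4 passed the unadjusted call as higher (median log2 fold change 1.05), and 0 passed after adjustment. The 4 calls became 2 without VHL-KO replicate 1 and 0 without either of VHL-KO;SETD2-KO replicates 2 and 4.

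Proximal tubule genes, which mark 1 segment of the tubular epithelium the preparation was made for, ran the other way. The 10 genes summed to 28513 to 31653 CPM in libraries labelled VHL-KO and to 8935 to 13512 CPM in the VHL-KO;SETD2-KO-labelled ones, and 5 of 10 passed edgeR's unadjusted call as lower, with 0 after adjustment. These 5 became 8 without VHL-KO replicate 4, 3 without VHL-KO;SETD2-KO replicate 3 and 1 without either of the other libraries of that label. The members' sum was 7.61%, 10.3% and 7.85% of the proximal tubule sum in the VHL-KO-labelled libraries and 55.8%, 27.2% and 41.5% in the others. On this scale all 3 libraries of 1 label were above all 3 of the other, replicate 3 included. The divisor alone already separated the labels. The members' own sum in replicate 3, 2432 CPM, lay within the 2351 to 2948 CPM of the VHL-KO-labelled libraries, so the ratio shows no gain of the members there. Kap, an androgen-regulated proximal tubule gene and the most abundant of the list, had 18256, 16158 and 7605 CPM against 6748, 1214 and 6954 CPM. It was the largest term of the sum in VHL-KO replicates 1 and 2, and its lowest value was in VHL-KO;SETD2-KO replicate 3, the library with high Xist counts. The part of Kap in the percentage of that library was not tested. Slc34a1, the phosphate transporter, had 4970, 4750 and 14181 CPM against 2185, 2962 and 2439 CPM. Whether the share of glomerular or proximal tubular cells had a part in the members' difference was not tested.

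Other lists did not follow the members when all libraries were kept. Without VHL-KO replicate 4, values above 0 were found in 11 of 12 mesangial, pericyte and smooth muscle genes (median log2 fold change 1.00). They were also found in 7 of 8 thick limb and distal tubule genes (0.87) and 7 of 8 collecting duct genes (2.23). In that fit the medians were -0.23 for leukocyte genes and -0.02 for platelet and erythroid genes. Summed levels in single libraries were as follows. Thick limb and distal tubule genes were highest in VHL-KO replicate 4 (7055 CPM) and VHL-KO;SETD2-KO replicate 3 (4839 CPM), against 1737 to 2412 CPM elsewhere. Mesangial, pericyte and smooth muscle genes summed to 188 to 925 against 169 to 597 CPM, leukocyte genes to 169 to 772 against 154 to 367 CPM, and platelet and erythroid genes to 538 to 1897 against 557 to 607 CPM, each with VHL-KO replicate 4 the highest library. The platelet gene Pf4 was at 0 in all 6.

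**Figure D5:**
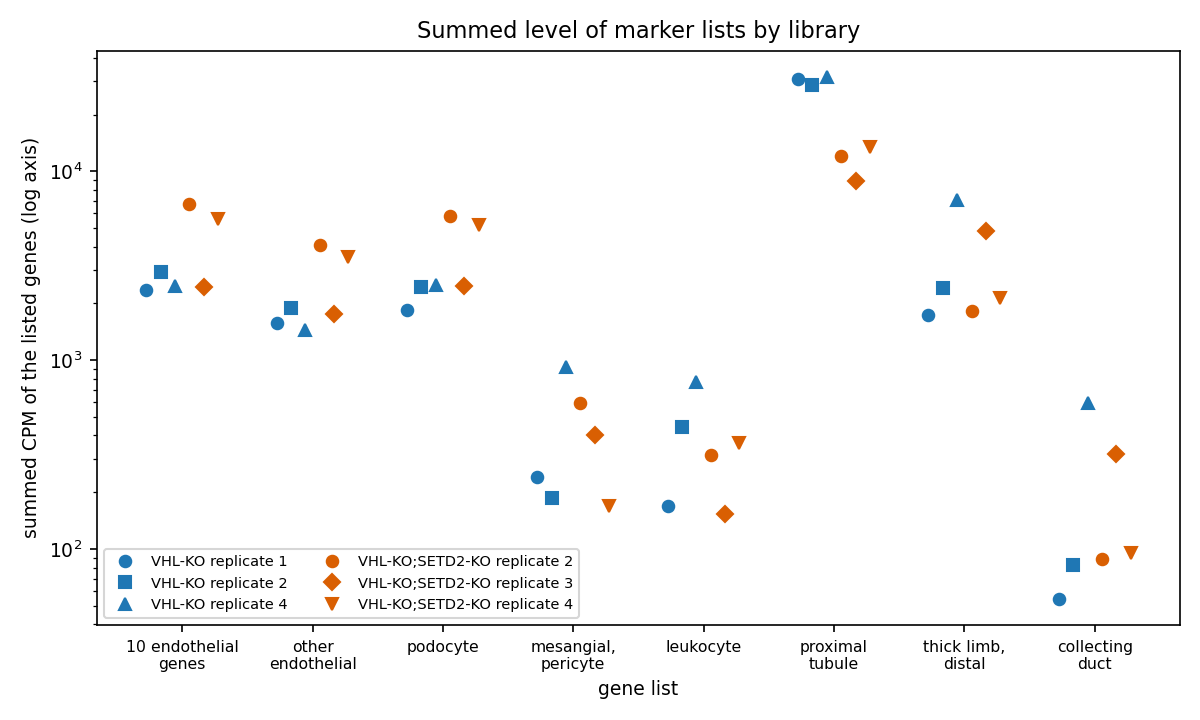
Summed CPM of marker lists (log axis) in each library, with libraries labelled VHL-KO in blue and VHL-KO;SETD2-KO in orange. The 10 endothelial genes, the other endothelial genes and the podocyte genes are highest in VHL-KO;SETD2-KO replicates 2 and 4, the proximal tubule list separates by label in the opposite direction, and the thick limb and collecting duct lists are highest in VHL-KO replicate 4 and VHL-KO;SETD2-KO replicate 3.

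Genes outside the lists were ranked by how closely they followed the members' mean profile over the 6 libraries. Among 12389 genes with a mean log2 CPM of at least 1, the 10 highest Pearson correlations were 0.98 to 0.99, for Stx2, Nes, Epn2, Nek9, Zbtb4, Leprot, Atp8b2, Myo1e, Tspan18 and Eml1. Stx2 (0.993) encodes a plasma membrane syntaxin, and Nes (0.992) encodes nestin, an intermediate filament protein. Myo1e (0.982) encodes a class I myosin. By list, the median correlation with the members was 0.87 for podocyte genes, 0.78 for endothelial transcription factors, 0.75 for angiogenic receptors and targets and 0.73 for the other endothelial genes, against 0.07 over all genes compared and -0.62 for proximal tubule genes. These values rest on 6 libraries and are a description of likeness.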

How the data were processed

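RNA was extracted by the authors from PTECs of 10-week-old mice with TRIzol, and directional libraries were sequenced as paired ends on an Illumina platform. The submitters' processing notes name HISAT2 2.0.4 and GRCm38, and the counting program, gene annotation and use of strand are not given in the sources used here. The authors deposited raw counts per gene symbol, without normalization, in 1 column per library. Groups were taken from the genotype in the sample labels.

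The deposited counts were normalized with TMM in edgeR 4.0.16 (R 4.3.3), genes passing filterByExpr were kept, and the labels were compared with edgeR's quasi-likelihood test with Benjamini-Hochberg adjustment over all 14611 genes. Genes were called at p under 0.05, unadjusted as in the study's methods or adjusted, with a fold change of at least 1.5. DESeq2 1.42.0 was an alternative. Standard errors of fold changes are the log2 fold change divided by the square root of the F statistic. Log2 CPM used a prior count of 2. The smallest detectable signal was 3 counts. TPM, length and GC content came from the longest coding transcript in GENCODE M21, which covered 94.5% of the tested genes, and promoters from the RefSeq table of GRCm38.p6. The fits were tested on simulated data.

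The members and the lists were chosen with earlier results of these data known. Named were the 10 members, Setd2 and Vhl, in each endothelial list the genes called and the 3 most abundant, in each list of another cell type the 2 most abundant, and the 10 genes most like the members' profile; not every such gene is printed. Xist, the Y-linked genes, Cldn5, Ccl21a and Pf4 were chosen after their values were seen. Alternatives were DESeq2's size factors (RLE), the DESeq2 Wald test, no filter, library sizes without mitochondrial genes, a replicate block and leaving out each library.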

Additional observations from a re-analysis of the deposited data

How the results depend on the processing

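Of the members, 9 kept values above 0 in every setting run, and Plvap, at -0.86 with all libraries, ranged from -1.70 to 1.61 with 1 left out, above 0 only without VHL-KO replicate 4. The members' median log2 fold change ranged from 0.73 without VHL-KO;SETD2-KO replicate 2 to 1.39 with the replicate block. Vhl (0.12) and Lpl (-0.21) also changed sign without VHL-KO replicate 4, and over the fits that left out 1 library they ranged from -0.42 to 0.12 and from -0.21 to 0.52. The cause was not tested.

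Replicate numbers 2 and 4 occur under both labels, and the deviations of same-numbered libraries correlated at 0.16 and -0.32. The deviations were taken from label means that include VHL-KO replicate 4 and VHL-KO;SETD2-KO replicate 3, so they cannot show whether same-numbered libraries were paired. With the replicate block on these paired numbers, 93 genes were called higher, 54 lower and 1 of the other endothelial genes, Clec14a, higher at the unadjusted threshold. S1pr1, Cd93, Myct1, Sox17, Fli1, Jag1, Esm1, Hey1 and Plat lost the call in this comparison. VHL-KO replicate 1 and VHL-KO;SETD2-KO replicate 3 add nothing to that comparison, and the median of all genes was 0.11 in it. DESeq2 called 1123 genes lower unadjusted, and 2 higher and 47 lower after adjustment. Without the filter 634 genes were higher unadjusted and 2 lower after adjustment. With 1 library left out, genes higher ranged from 179 to 1243, genes lower from 206 to 1078, genes lower after adjustment from 0 to 1, and the other endothelial genes higher from 1 to 9. With 3 libraries per label and a common dispersion of 0.27, the members' standard errors were 0.47 to 1.14.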
